A study of Mus musculus with 9 samples.

Results

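The 10 genes described here are endothelial identity genes and leukocyte adhesion genes of mouse ear skin: Vcam1, Icam1, Selp, Sele, Pecam1, Cdh5, Kdr, Tek, Flt1 and Vwf. They were taken by symbol from the gene count table, where all 10 matched a single Ensembl identifier among 55401 features, and all 10 passed the filter on low counts with 21925 genes in all. Messenger RNA of ear tissue of C57 mice was measured in 9 libraries, 3 per group. Control ears were given absolute ethyl alcohol, MC903 ears were given calcipotriol (MC903), a vitamin D analogue used to model atopic dermatitis in mice, and the third group was given MC903 with paeonol, a phenol of peony bark, at 200 mg/kg. The labels give no age, sex, route, number of applications or paeonol vehicle, and no group had paeonol alone. Nothing in them says whether the libraries of a group came from separate animals, so the tests measure how far these libraries scatter, and that scatter may be technical.

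Endothelial cells line the blood vessels, and leukocytes leave the blood across this layer in steps. Selectins slow the cells down, and vascular cell adhesion molecules then hold them by their integrins. Resting endothelium carries little E-selectin and VCAM-1, and cytokines such as TNF and interleukin-1 raise them, largely through NF-κB, a factor named in the title of the series. P-selectin is instead already stored in resting endothelium. The identity genes are a different set. They encode junction proteins, receptors for VEGF and angiopoietin, and von Willebrand factor, and they mark endothelium whether it is activated or not.

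Sele and Selp both lie on mouse chromosome 1. In GRCm38 coordinates Sele spans 164048234 to 164057677 and Selp 164115264 to 164150026, both on the plus strand. Vcam1 lies on chromosome 3 (116109949 to 116129688, minus strand) and Icam1 on chromosome 9 (21015985 to 21028817, plus strand). Kdr lies on chromosome 5 (75932827 to 75978458), as does Flt1 (147561604 to 147726011), both on the minus strand. No annotated gene overlaps a member on its own strand. Vcam1, Icam1, Selp and Cdh5 have predicted genes on the other strand, and no source used here gives the strand setting of the counting, so reads of those could be included.

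The upstream sequences of 5 members follow, because all 4 adhesion genes were called higher with MC903 and NF-κB is a factor the series names. RefSeq (GRCm38.p6) promoters were found for 6 of the 10 members, and Tek is not printed. Vcam1, Pecam1, Cdh5 and Vwf had no entry, so the adhesion gene Vcam1 is not covered. Each run is the 250 bases before the RefSeq gene start, 5′ to 3′ on the gene's strand. In the first 3 runs, capitals mark GGAA on either strand (TTCC where it lies on the other strand), the core letters bound by ETS factors and also part of many NF-κB sites.

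Sele, chr1:164047984-164048233, plus strand: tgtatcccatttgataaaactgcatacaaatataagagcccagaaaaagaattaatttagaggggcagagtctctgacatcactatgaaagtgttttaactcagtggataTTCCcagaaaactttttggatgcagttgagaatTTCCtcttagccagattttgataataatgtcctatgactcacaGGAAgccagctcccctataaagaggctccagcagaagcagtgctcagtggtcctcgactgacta

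Selp, chr1:164115014-164115263, plus strand: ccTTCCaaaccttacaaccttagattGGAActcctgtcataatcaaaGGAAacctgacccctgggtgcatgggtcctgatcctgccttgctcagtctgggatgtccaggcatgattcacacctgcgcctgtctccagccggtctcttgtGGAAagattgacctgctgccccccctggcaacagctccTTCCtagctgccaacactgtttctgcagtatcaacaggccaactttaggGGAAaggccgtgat

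Icam1, chr9:21015690-21015939, plus strand: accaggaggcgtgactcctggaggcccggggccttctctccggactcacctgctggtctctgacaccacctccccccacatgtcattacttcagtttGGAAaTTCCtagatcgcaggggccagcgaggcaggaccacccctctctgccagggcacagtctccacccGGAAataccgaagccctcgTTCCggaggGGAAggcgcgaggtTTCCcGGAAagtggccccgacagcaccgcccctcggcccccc

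In the runs of Kdr and Flt1, which encode VEGF receptors, capitals mark the only matches to the degenerate NF-κB consensus on either strand among the 6 windows. The consensus searched was GGGRNWYYCC, where R is A or G, W is A or T, Y is C or T and N is any base. Only full matches were searched, so any window may hold sequences close to it.

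Kdr, chr5:75978456-75978705, minus strand: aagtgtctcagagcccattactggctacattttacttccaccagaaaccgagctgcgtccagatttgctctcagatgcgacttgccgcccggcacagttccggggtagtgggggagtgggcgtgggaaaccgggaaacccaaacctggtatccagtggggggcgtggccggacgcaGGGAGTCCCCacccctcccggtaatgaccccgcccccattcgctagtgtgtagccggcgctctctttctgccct

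Flt1, chr5:147726012-147726261, minus strand: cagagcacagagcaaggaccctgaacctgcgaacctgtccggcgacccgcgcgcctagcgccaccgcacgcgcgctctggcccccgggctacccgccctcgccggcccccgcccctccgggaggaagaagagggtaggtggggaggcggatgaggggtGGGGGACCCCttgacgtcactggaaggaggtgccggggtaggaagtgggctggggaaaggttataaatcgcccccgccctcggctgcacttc

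The NF-κB consensus was held by 3.90% of 32851 RefSeq promoter windows of this length, and GGAA on either strand by 93.4%, with a median of 3 matches a window. Sele had 3 GGAA matches, Selp 6, Icam1 7, Kdr 4, Flt1 4 and Tek 2. These matches describe letters in a window. They are not measured binding sites, and the lack of the consensus in the Sele, Selp and Icam1 windows says only that these letters are not there.

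All 10 genes were read well in every library. Library totals ranged from 54264605 to 57745225 estimated counts, and the members had between 270 (Sele, control library 1) and 6484 (Pecam1, control library 2) counts. Expression is given in CPM, counts scaled to a common library size by TMM, which sets the scale from the bulk of the genes. To compare genes with each other, levels are given in TPM, which divides by the merged exon length. On this scale Pecam1 had the highest mean in control ears, 44.4 ± 5.2 TPM (SD, n = 3), followed by Icam1 at 31.0 ± 8.28 and Cdh5 at 22.8 ± 2.67. Pecam1 and Icam1 overlapped in range, as did Icam1 and Cdh5. Tek, at 12.6 ± 1.4 TPM, lay below Cdh5 and above Kdr without overlap. Kdr (10.1 ± 0.978), Vwf (9.75 ± 0.541), Selp (8.03 ± 1.83), Vcam1 (5.39 ± 1.35), Sele (5.26 ± 1.22) and Flt1 (4.64 ± 0.9) followed, and each overlapped the next in that order of TPM. In MC903 ears Selp (14.1 ± 1.43 TPM), Sele (10.2 ± 3.43) and Vcam1 (9.09 ± 1.46) stood above Tek (7.6 ± 0.835) and Kdr (5.99 ± 0.3) in the order of means. In the paeonol group Icam1 was first at 29.7 ± 1.0 TPM, ahead of Pecam1 at 24.4 ± 5.64 with overlapping ranges, and Vcam1 was last at 2.94 ± 0.822.

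**Figure D1:**
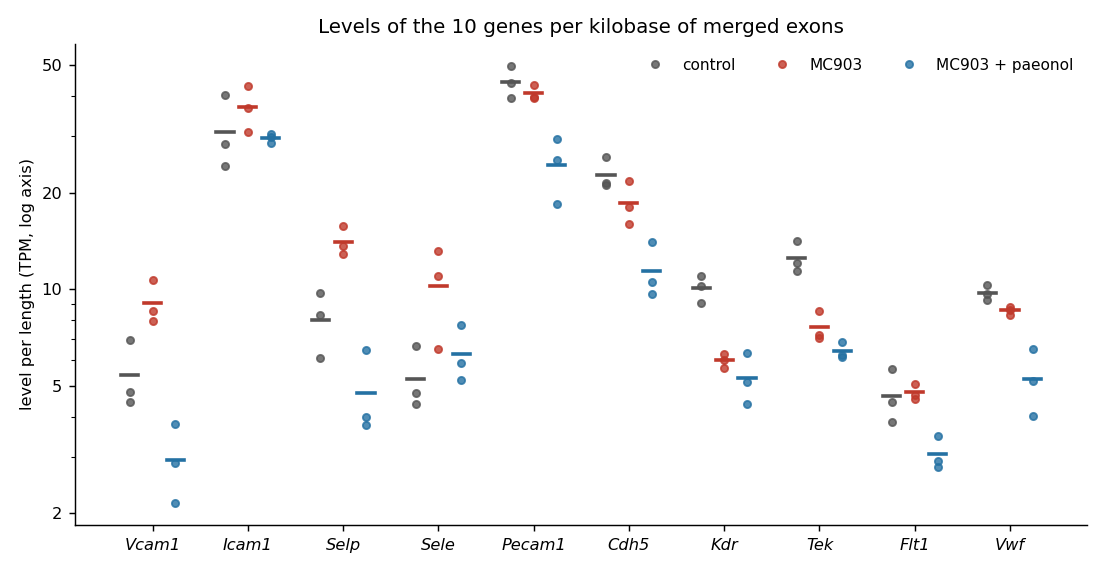
Level per length (TPM, log axis) of each gene in the 3 groups; points are libraries and bars are means of 3. Pecam1, Icam1 and Cdh5 are the 3 highest genes in every group, and Vcam1 is last in the paeonol group at 2.94 TPM.

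The first comparison, MC903 against control, asks how these transcripts of the whole ear differed with the vitamin D analogue. All 4 adhesion genes were higher in MC903 ears, Sele 2.46-fold, Selp 2.22-fold, Vcam1 2.13-fold and Icam1 1.51-fold. The angiogenic receptors split: Kdr and Tek were lower and Flt1 was higher. Pecam1, Cdh5 and Vwf did not pass the test. Of the 10 members, 5 were called higher and 2 lower by edgeR's quasi-likelihood test at a Benjamini-Hochberg adjusted p under 0.05. Over all 21925 genes tested, 23.0% were called higher and 23.8% lower, so the share of members called lower is near that background.

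Sele encodes E-selectin, which endothelium makes after cytokine stimulation. It measured 4.32, 6.64 and 4.87 CPM in control libraries 1 to 3 and 8.3, 13.9 and 16.8 CPM in MC903 libraries 1 to 3. Every MC903 library was above every control, and the MC903 libraries spread more widely, with a coefficient of variation of 33.2% against 23.0% in controls. The log2 change was 1.30 ± 0.26 (SE; edgeR adjusted p = 0.00158). Selp encodes P-selectin, which endothelium stores for quick release and which platelets also carry. It measured 12.4, 14.7 and 9.45 CPM in controls and 26.3, 24.8 and 30.1 CPM in MC903 ears. The groups did not overlap, and the log2 change was 1.15 ± 0.21 (edgeR adjusted p = 0.000848).

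Vcam1 encodes the ligand of the integrin VLA-4 of lymphocytes, monocytes and eosinophils, and some stromal cells and macrophages also make it. Its level was 13.4, 21.1 and 14.9 CPM in controls and 41.7, 33.0 and 30.7 CPM in MC903 ears, again without overlap. Its log2 change was 1.09 ± 0.22 (edgeR adjusted p = 0.00207). Icam1 encodes the ligand of the leukocyte integrins LFA-1 and Mac-1, and activated keratinocytes and leukocytes make it as well. It measured 41.9, 60.2 and 37.3 CPM in controls and 59.0, 69.9 and 81.9 CPM in MC903 ears, so that control library 2 lay above MC903 library 1. Its log2 change was 0.60 ± 0.18 (edgeR adjusted p = 0.0217). The Icam1 call ended without control library 1 or 3 (edgeR adjusted p = 0.0767 and 0.0588) and without MC903 library 2 or 3 (0.053 and 0.0743 as edgeR adjusted p).

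Among the receptors, Kdr encodes VEGFR2, the main signalling receptor for VEGF-A on endothelium. It measured 31.3, 34.1 and 28.8 CPM in controls and 22.5, 24.7 and 23.5 CPM in MC903 ears. All MC903 libraries lay below all controls, and the log2 change was -0.41 ± 0.11 (edgeR adjusted p = 0.0105). Tek encodes TIE2, the angiopoietin receptor, and went the same way, from 19.4, 22.9 and 19.0 to 14.8, 17.5 and 14.5 CPM. Its log2 change was -0.39 ± 0.11 (edgeR adjusted p = 0.016), and the call ended without control library 2 or MC903 library 1 or 3 (0.0765, 0.0549 and 0.0632 as edgeR adjusted p). Flt1 encodes VEGFR1, which binds VEGF tightly, exists also as a soluble form and is carried by monocytes too. It measured 17.6, 26.0 and 21.2 CPM in controls and 26.8, 29.6 and 27.6 CPM in MC903 ears, a log2 change of 0.38 ± 0.13 (edgeR adjusted p = 0.0381). The count per gene does not separate its soluble from its membrane form. The Flt1 call is the least firm of the 7: it ended without control library 1 or 3 (edgeR adjusted p = 0.143 and 0.0984) and without MC903 library 1, 2 or 3 (0.0589, 0.115 and 0.0728).

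The structural identity genes were close between these groups. Pecam1, the junction protein CD31 that leukocytes and platelets share, went from 92.7, 106.4 and 86.4 to 107.4, 117.2 and 108.2 CPM (log2 change 0.22 ± 0.13, edgeR adjusted p = 0.2). The MC903 libraries lay above the controls by a narrow margin. Vwf, the clotting protein of Weibel-Palade bodies, went from 52.8, 56.9 and 52.3 to 60.6, 61.7 and 58.3 CPM (log2 change 0.16 ± 0.12, edgeR adjusted p = 0.31). Cdh5, the adherens junction protein VE-cadherin, measured 30.6, 37.3 and 31.1 CPM in controls and 33.3, 39.7 and 29.3 CPM in MC903 ears. These overlapped, with a log2 change of 0.05 ± 0.14 (edgeR adjusted p = 0.81) whose sign turned to -0.08 without MC903 library 2 and which was -0.00 without control library 1. Counted over the 10 members in CPM, MC903 libraries lay wholly above controls in 6 and wholly below in 2, against 28.3% and 29.8% of all genes tested. In TPM, which is not scaled by TMM, this differed. The mean of Pecam1 was 44.4 TPM in controls and 40.9 in MC903, of Cdh5 22.8 and 18.6, and of Vwf 9.75 and 8.59. On that scale Vwf lay wholly below controls, and Sele, Flt1 and Pecam1 overlapped them.

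**Figure D2:**
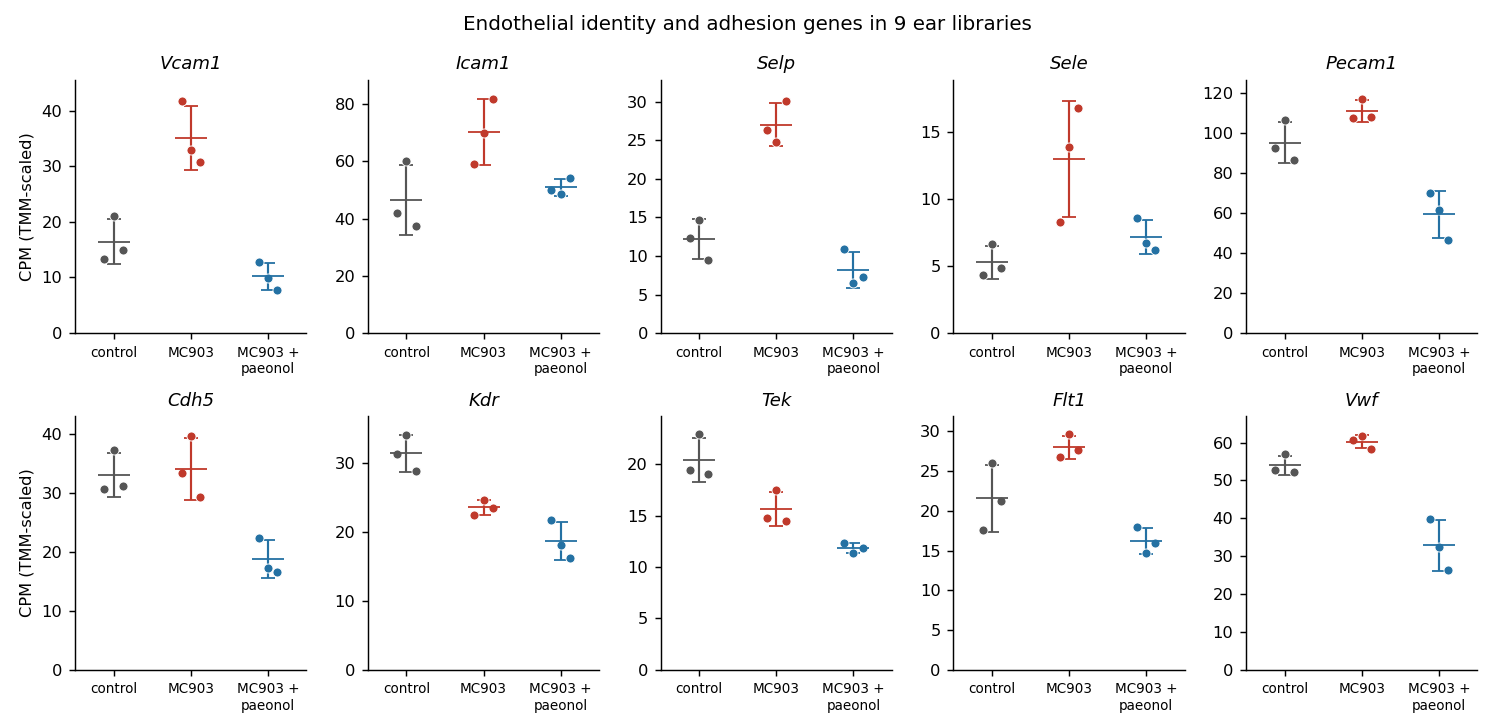
CPM of each gene by library in control, MC903 and MC903 with paeonol ears; the vertical axes start at 0, points are libraries, and bars are the mean ± SD of 3. Sele, Selp and Vcam1 are highest in all 3 MC903 libraries except that Sele overlaps the paeonol group, and Pecam1, Cdh5, Vwf, Kdr and Tek are lowest in the paeonol group.

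The choice of scale matters for the small changes. With scaling by library totals alone the median log2 change of all genes moved from -0.0155 to -0.205, and the members called became 3 higher and 2 lower. Sele, Selp, Vcam1, Kdr and Tek were still called in the same direction, while Icam1 (log2 change 0.41, edgeR adjusted p = 0.0916) and Flt1 (0.18, 0.305) were not. On that scale the uncalled Cdh5 and Vwf had log2 changes of -0.14 and -0.03, and over all genes 3402 were called higher and 7224 lower in place of 5044 and 5215.

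The second comparison, MC903 with paeonol against MC903, asks what differed when paeonol was given. All 9 members called were lower with paeonol, and none was higher. Vcam1 was at 0.29 and Selp at 0.302 of the MC903 level. Pecam1, Cdh5 and Vwf, which were not called with MC903, and Flt1, which was called higher, were at 0.536 to 0.578 of it. Over all genes 14.3% were called lower and 15.3% higher. In 9 of the 10 genes the paeonol libraries lay wholly below the MC903 libraries in CPM, which held for 22.0% of all genes tested. In bulk tissue, fewer cells of a type and less RNA per cell cannot be told apart, and vehicle and handling cannot be told apart from paeonol.

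Vcam1 measured 12.8, 9.92 and 7.80 CPM in paeonol libraries 1 to 3, all below the lowest MC903 library at 30.7 CPM. The log2 change was -1.79 ± 0.22 (edgeR adjusted p = 0.000266). Selp measured 10.9, 6.49 and 7.21 CPM, with a log2 change of -1.73 ± 0.21 (edgeR adjusted p = 0.000161). Sele measured 8.6, 6.68 and 6.21 CPM, so that paeonol library 1 reached the level of MC903 library 1 at 8.3 CPM. Its log2 change of -0.86 ± 0.26 was called (edgeR adjusted p = 0.0261). That call ended without MC903 library 2 or 3 (edgeR adjusted p = 0.0774 and 0.113) or paeonol library 2 or 3 (0.0886 and 0.0842). Icam1, at 49.8, 48.5 and 54.3 CPM, lay below every MC903 library, but its log2 change of -0.47 ± 0.18 did not pass (edgeR adjusted p = 0.0816). It was called by edgeR when control library 2 (adjusted p = 0.00986), control library 3 (0.0488) or MC903 library 1 (0.049) was left out, and by DESeq2 (adjusted p = 0.0224).

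The other 6 genes were all called lower, Pecam1, Vwf, Cdh5 and Flt1 by more than Kdr and Tek in their estimates. Pecam1 measured 70.2, 61.4 and 46.8 CPM in paeonol libraries 1 to 3 (log2 change -0.90 ± 0.13, edgeR adjusted p = 0.000694). Vwf measured 39.9, 32.4 and 26.4 CPM (-0.87 ± 0.12, 0.000304), and Cdh5 22.4, 17.2 and 16.5 CPM (-0.87 ± 0.14, 0.000936 as edgeR adjusted p). Paeonol library 1 was the highest of its group for all 3 of these genes. Flt1 measured 17.9, 14.7 and 16.0 CPM, a log2 change of -0.79 ± 0.14 (edgeR adjusted p = 0.00115). Kdr, at 21.7, 18.1 and 16.2 CPM, and Tek, at 12.3, 11.4 and 11.8 CPM, had the smallest called changes, -0.34 ± 0.11 and -0.40 ± 0.12 (edgeR adjusted p = 0.043 and 0.022). The Kdr call ended without MC903 library 1, 2 or 3 (edgeR adjusted p = 0.0602, 0.126 and 0.0939), paeonol library 2 or 3 (0.12 and 0.137) or control library 1 or 3 (0.0594 and 0.0505). The Tek call ended without MC903 library 2 or paeonol library 2 (edgeR adjusted p = 0.0908 and 0.0733).

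Against control ears, which share libraries with both other comparisons, 7 members were called lower with paeonol and none higher, while 14.5% of all genes were called lower and 16.3% higher. Cdh5 was at 0.567, Tek at 0.581, Kdr at 0.594, Vwf at 0.609 and Pecam1 at 0.625 of control, with edgeR adjusted p from 0.000501 to 0.00357. In each of these 5 genes the paeonol libraries lay below all controls. Vcam1 was also below all controls, at 0.618 of control (log2 change -0.69 ± 0.22, edgeR adjusted p = 0.0359). Its call ended without control library 2 or 3 (0.115 and 0.0573), paeonol library 2 or 3 (0.105 and 0.112) or MC903 library 2 (0.0527 as edgeR adjusted p). The count of 6 genes wholly below control compares with 23.6% of all genes tested. Flt1 was called at a log2 change of -0.41 ± 0.14 (edgeR adjusted p = 0.0369), with overlapping groups. That call ended without control library 2 or 3 (0.16 and 0.0765), paeonol library 2 or 3 (0.132 and 0.0893) or MC903 library 2 or 3 (0.0505 and 0.0503 as edgeR adjusted p). Selp (-0.57 ± 0.21, edgeR adjusted p = 0.0581), Icam1 (0.13 ± 0.18, 0.64) and Sele (0.44 ± 0.26, 0.229) were not called, and all 3 overlapped the controls. Selp was called without control library 3 or paeonol library 1 (edgeR adjusted p = 0.0264 and 0.00672).

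Most other endothelial transcripts measured were lower with paeonol too. A list of 20 other pan-endothelial genes, all detected and tested, had 14 called lower and none higher against MC903, with a median log2 change of -0.68 beside 0.0024 over all genes. S1pr1, the sphingosine-1-phosphate receptor that keeps vessels tight, fell from 38.2 ± 3.03 to 14.4 ± 0.547 CPM (SD, n = 3). Eng, the TGF-β co-receptor endoglin, fell from 63.4 ± 4.81 to 33.2 ± 2.21 CPM, and Gpihbp1, which anchors lipoprotein lipase in capillaries, from 7.25 ± 0.505 to 2.34 ± 0.181 CPM. In MC903 against control the same list had 4 higher and 2 lower, with a median of 0.14, beside 23.0% and 23.8% of all genes. S1pr1, Eng and Cyyr1 were higher by log2 changes of 0.63 ± 0.11, 0.43 ± 0.08 and 0.98 ± 0.22. Against control, the paeonol group had 14 lower and none higher, among them S1pr1 (-0.78 ± 0.11), the guidance receptor gene Robo4 (-0.86 ± 0.13) and Egfl7 (-0.78 ± 0.12). The summed level of the list ranged over 412.0 to 471.2 CPM in controls, 438.6 to 488.5 CPM in MC903 and 246.4 to 366.0 CPM with paeonol. The upper end of the paeonol range was library 1.

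To see how members moved beside other endothelial RNA of the same library, counts were also scaled to the geometric mean of these 20 genes. On this scale a gene that falls as much as the reference shows no change. It moves the median log2 change of all genes to 0.712 in paeonol against MC903 and to 0.616 against control, so it describes ratios to endothelial RNA only. For MC903 against control 4 members were called higher and 2 lower, beside 14.3% and 20.8% of all genes. For paeonol against MC903, Vcam1 and Selp were called lower, beside 2.48% of all genes, and Kdr was called higher, beside 57.8%. Of the 20 endothelial genes that set this scale, 4 were themselves called lower and 4 higher in that comparison, so such a fall is not particular to the members. Of 12 monocyte and macrophage markers on this scale, 9 were called higher and 1 lower with MC903. With paeonol against MC903, 1 of these markers was higher and 8 were lower (median -0.67), while of 8 pan-leukocyte markers 2 were higher and 3 lower. Against control, Sele and Icam1 were called higher with paeonol and none lower, beside 48.1% and 0.985% of all genes.

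Vcam1 stood at 0.781, 1.1 and 0.882 times the reference in controls, at 2.3, 1.63 and 1.79 times in MC903 and at 0.939, 0.941 and 0.77 times with paeonol. The paeonol ratios were within the control range or just below it and well under every MC903 ratio (log2 change against MC903 -1.11 ± 0.18, edgeR adjusted p = 1.21e-05). The Selp ratio was 0.723, 0.767 and 0.559 times in controls, 1.45, 1.23 and 1.75 times in MC903 and 0.796, 0.615 and 0.712 times with paeonol. Paeonol library 1 lay just above the highest control, the other two lay within the control range, and all 3 lay under every MC903 ratio. Its log2 change against MC903 was -1.06 ± 0.19 (edgeR adjusted p = 3.35e-05). Against control, the ratio changes with paeonol were -0.06 ± 0.18 for Vcam1 and 0.05 ± 0.19 for Selp on the log2 scale (edgeR adjusted p = 0.814 and 0.848).

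Sele and Icam1 differed from that pattern. The Sele ratio was 0.252, 0.346 and 0.288 in controls, 0.458, 0.687 and 0.977 in MC903 and 0.63, 0.633 and 0.613 with paeonol. All 3 paeonol ratios lay above all controls and inside the MC903 range. The log2 change was 1.08 ± 0.23 against control (edgeR adjusted p = 0.000338) and -0.18 ± 0.23 against MC903 (0.518), and the latter turned to 0.13 without MC903 library 3. The Icam1 ratio was 2.44, 3.14 and 2.21 in controls, 3.26, 3.45 and 4.77 in MC903 and 3.65, 4.6 and 5.36 with paeonol. Its log2 change was 0.80 ± 0.18 against control (edgeR adjusted p = 0.000638) and 0.25 ± 0.18 against MC903 (0.247). The median log2 change of all genes against control was 0.616 on this scale. With TMM scaling neither gene was called against control (0.44 ± 0.26 for Sele and 0.13 ± 0.18 for Icam1). Relative to the reference, the calls of Sele and Icam1 against control were made with each of the 9 libraries left out. A difference between the pairs Vcam1 with Selp and Sele with Icam1 was not tested as such.

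Among the identity genes, Cdh5, Pecam1, Vwf and Flt1 were not called relative to the reference in any comparison, while Kdr and Tek were. Cdh5 stood at 1.86 ± 0.0827 times the reference in controls, 1.83 ± 0.129 in MC903 and 1.63 ± 0.00565 with paeonol (SD, n = 3). Pecam1 stood at 5.35 ± 0.224, 6.0 ± 0.263 and 5.19 ± 0.602, and Vwf at 3.04 ± 0.0671, 3.26 ± 0.186 and 2.87 ± 0.234. Flt1 stood at 1.21 ± 0.169, 1.52 ± 0.0762 and 1.43 ± 0.136. The Kdr ratio was 1.77 ± 0.0627 in controls, 1.28 ± 0.0807 in MC903 and 1.63 ± 0.0701 with paeonol, and Tek ran 1.15 ± 0.0389, 0.842 ± 0.0244 and 1.05 ± 0.137. For both, the MC903 ratios lay below all others. On this scale 20.8% of all genes were called lower with MC903, near the share of members called lower. The fall with MC903 was called for Kdr and Tek (log2 -0.47 ± 0.15 and -0.45 ± 0.17, edgeR adjusted p = 0.0173 and 0.0378). For Kdr it was lost without control library 1 or MC903 library 1 or 2 (edgeR adjusted p = 0.0747, 0.0746 and 0.0667), and for Tek without any 1 of the 6 libraries (0.0717 to 0.119 as edgeR adjusted p). The Kdr rise with paeonol against MC903 (0.35 ± 0.15, edgeR adjusted p = 0.0474) was lost without any 1 library other than paeonol library 1 (0.0537 to 0.14), and without paeonol library 1 Tek was called too (0.42, edgeR adjusted p = 0.0174). The Kdr rise was smaller than the median log2 change of all genes on this scale, 0.712, and 57.8% of all genes were called higher. With TMM scaling Kdr was called lower in that comparison (-0.34 ± 0.11). For Icam1, the rise with MC903 (0.56 ± 0.18, edgeR adjusted p = 0.0175) was lost without control library 1 or 3 or MC903 library 3 (0.0672, 0.104 and 0.162).

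**Figure D3:**
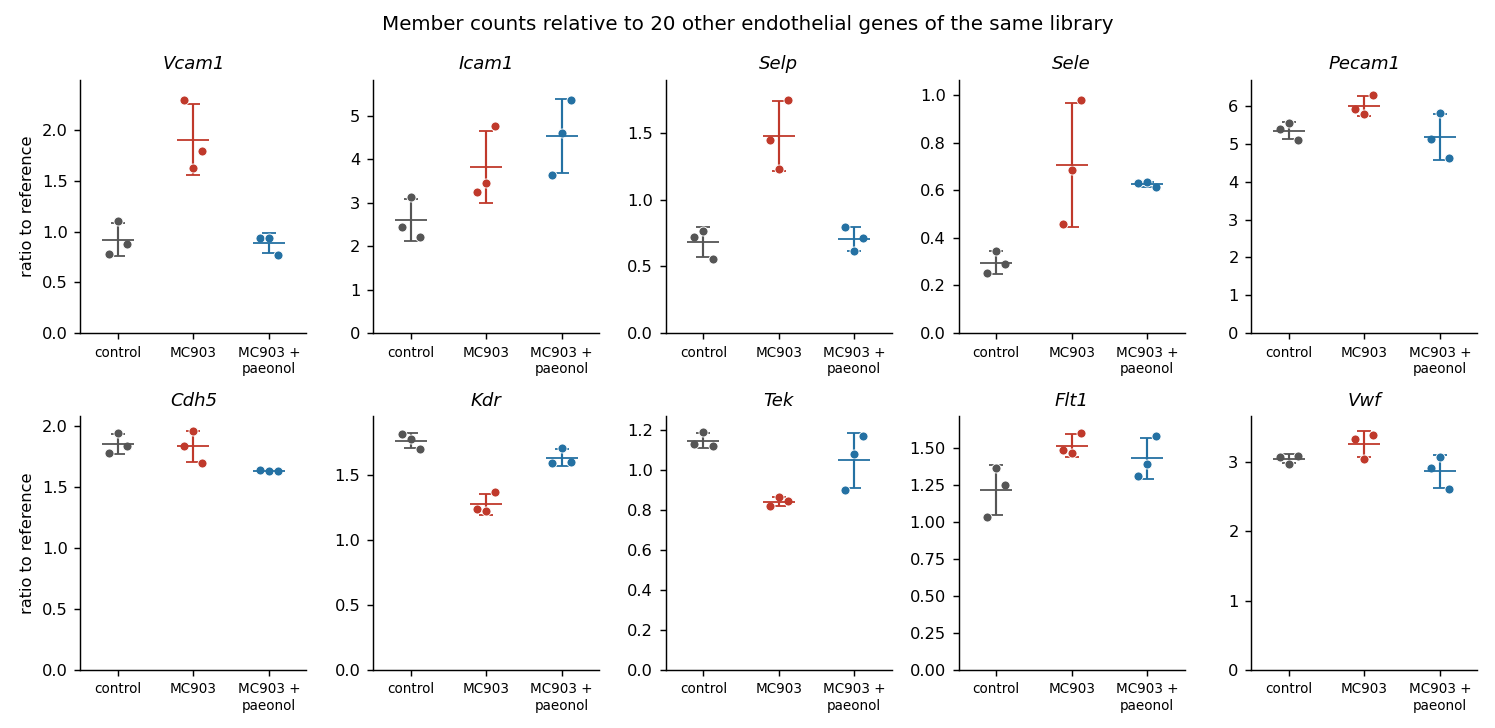
Ratio of each gene's counts to the geometric mean of 20 other endothelial genes, by library; axes start at 0, points are libraries, bars are the mean ± SD of 3. With paeonol Vcam1 and Selp lie near control (0.883 and 0.708), while Sele (0.625) and Icam1 (4.54) lie above all controls. On this scale the median log2 change of all genes against control is 0.616.

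**Figure D4:**
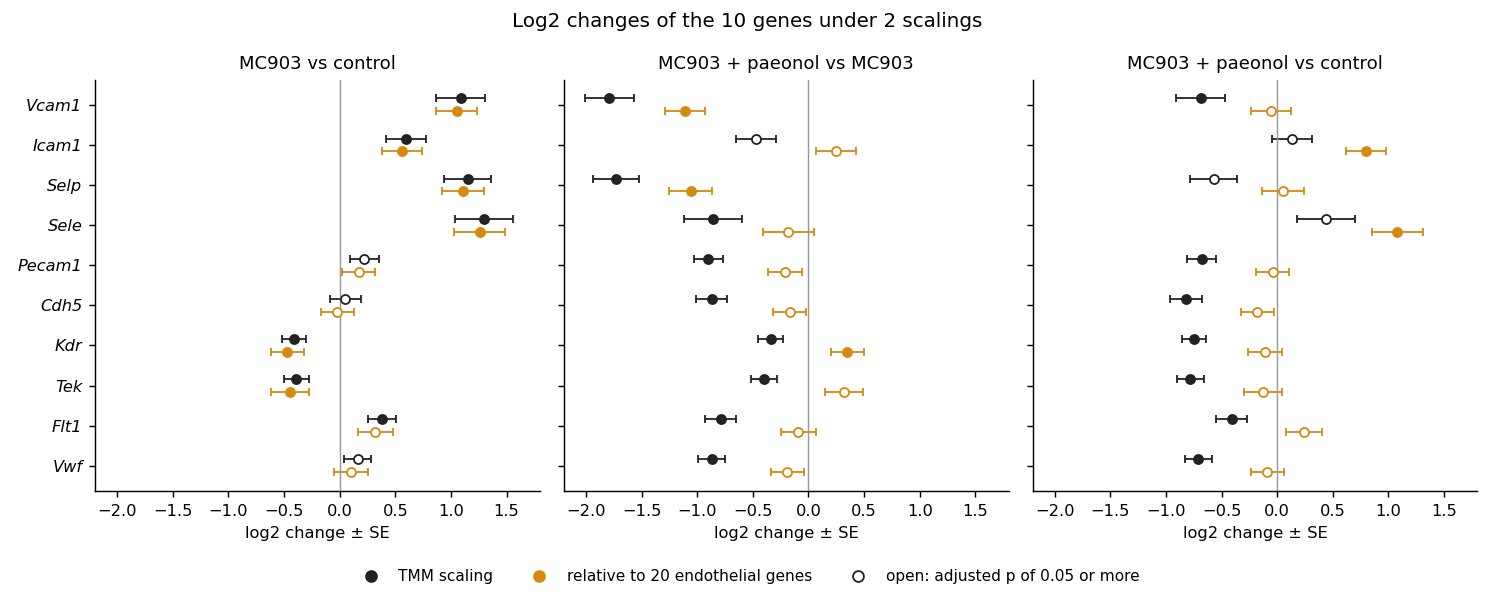
Log2 change ± SE of each gene in 3 comparisons, with TMM scaling (black) and relative to the 20 endothelial genes (orange); filled points were called by edgeR. In paeonol against MC903, 9 black points are filled below 0, and in orange only Vcam1 and Selp are.

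Across the 9 libraries some members ran closely together by Pearson's r of their log2 CPM, which is given as a description because 3 groups of libraries supply much of it. Pecam1, Vwf and Cdh5 were close (r from 0.948 to 0.989), Vcam1 ran with Selp (0.953) and Flt1 (0.936), Kdr with Tek (0.949) and Icam1 with Sele (0.899). The lowest values were those of Sele with Tek (-0.21) and Kdr (-0.202). With group means removed, r was 0.939 for Pecam1 and Vwf, 0.565 for Vcam1 and Selp, 0.57 for Kdr and Tek and 0.725 for Icam1 and Sele. Over the same 9 libraries, the genes most like Icam1 among those at a mean log2 CPM of 2 or more were Socs3, an inhibitor of cytokine signalling (r = 0.991), Med11 (0.974) and Mafk (0.962). Those most like Sele were Ywhah (0.974), the innate receptor gene Tlr2 (0.972) and Wsb2 (0.968). For Vcam1 they were the leukocyte integrin adaptor Fermt3 (0.99), Apobec3 (0.989) and Stard8 (0.982), and for Selp B3gnt3 (0.99), Fgl2 (0.989) and Bst1 (0.989). Kdr was closest to the water channel gene Aqp1 (0.992), and Tek had the endothelial factor gene Sox17 among its 3 (0.985). Cdh5 was closest to Hfe, Scarb1 and Mcam (0.982 to 0.99). Pecam1 and Vwf were each among the other's closest 3 (0.989), and Flt1 was closest to the macrophage gene Aif1 (0.983).

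Partners of the adhesion genes on leukocytes were measured in the same ears, within a list of trafficking genes. That list also holds adhesion genes of endothelium and other cells, such as Cd34 and F11r, so its counts mix both. Of its 22 genes tested, MC903 had 6 higher and 8 lower than control (median log2 change -0.05), beside 23.0% and 23.8% of all genes. Paeonol had 1 higher and 8 lower than MC903 (median -0.44), beside 15.3% and 14.3%. Among the receptors for ICAM-1, Itgb2, the shared chain of LFA-1 and Mac-1, went from 29.1 ± 4.36 CPM in control to 51.1 ± 5.56 in MC903 and 19.6 ± 3.31 with paeonol. Itgam, the Mac-1 alpha chain, rose by 1.75 ± 0.19 with MC903 and was lower by -1.85 ± 0.19 with paeonol on the log2 scale. Itgb7, a partner of the VLA-4 alpha chain, rose by 1.30 ± 0.11 and was lower by -1.86 ± 0.11. Itga4 itself, the chain that binds VCAM-1, was lower in MC903 (-0.55, edgeR adjusted p = 0.00924) and not called with paeonol against MC903 (-0.29, 0.174). Selplg, which encodes the selectin ligand PSGL-1, had a log2 change of -0.07 with MC903 (edgeR adjusted p = 0.615) and was lower with paeonol (-0.51, 0.00388). Cd44, an E-selectin ligand that keratinocytes also make in quantity, rose by 1.28 ± 0.09 and was lower by -0.54 ± 0.09 with paeonol. Against control, paeonol had 2 higher and 13 lower. Cd44 (0.75 ± 0.09) and the junction gene F11r (0.59 ± 0.09) were the 2 higher, and Cd34, a mucin of endothelium and other cells, was lower (-0.76 ± 0.11).

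Ligands of the receptors were measured as well. Of 18 angiogenic ligands and receptors tested outside the members, 4 were higher and 4 lower with MC903 (median -0.02), which is near the 23.0% and 23.8% of all genes, and 1 was higher and 10 lower with paeonol against MC903 (median -0.61). Vegfa, the ligand of VEGFR2 and VEGFR1, went from 62.3 ± 6.52 CPM in control to 103.6 ± 10.7 in MC903 and 54.0 ± 7.71 with paeonol. Both changes were called, with log2 changes of 0.73 ± 0.12 and -0.94 ± 0.12. Angpt2, the context-dependent TIE2 ligand released by activated endothelium, rose by 0.76 ± 0.24 and was lower by -1.50 ± 0.24, while Angpt1, the TIE2 agonist, was lower with MC903 (-0.67 ± 0.22) and not called with paeonol (-0.59 ± 0.22). Vegfb was lower with MC903 (-0.92 ± 0.13). Nrp2, a VEGF co-receptor, rose by 0.38 ± 0.06 and was lower by -0.64 ± 0.06 with paeonol. Against control the paeonol group had no gene of this list higher and 9 lower, among them Nrp1 (-0.75 ± 0.13), Flt4 (-0.92 ± 0.16) and Angpt1 (-1.26 ± 0.22).

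Endothelial regulators and effectors outside the members gave mixed counts. Other ear cells can make some of these transcripts too, and their part in the counts was not tested. The shares of all genes called higher and lower were 23.0% and 23.8% with MC903. They were 15.3% and 14.3% in paeonol against MC903, and 16.3% and 14.5% against control. Of 12 endothelial transcription factor genes, 3 were higher and none lower with MC903 (median 0.05), led by Sox7 (1.26 ± 0.11). With paeonol against MC903, 7 were lower and none higher (median -0.51), among them Ets1 (-0.87 ± 0.12) and the flow-responsive factor Klf2 (-0.85 ± 0.12), and against control 7 were lower and 2 higher. Of 12 genes of clotting and vascular tone, 6 were higher and 1 lower with MC903 (median 0.44), 6 lower and none higher with paeonol against MC903 (median -0.66), and 5 lower and 2 higher against control. Procr, the endothelial protein C receptor, rose by 1.24 ± 0.18 and was lower by -1.94 ± 0.19, whereas Thbd, thrombomodulin, rose by 0.97 ± 0.14 and was not called with paeonol (-0.29 ± 0.14). Of 13 junction and basement membrane genes, 5 were higher and 6 lower with MC903, 2 higher and 3 lower with paeonol against MC903, and 2 higher and 9 lower against control. The 2 higher than control were Jup (1.17 ± 0.11) and Ctnnd1 (0.41 ± 0.06). Of 10 keratinocyte markers, 7 were higher and 2 lower in that comparison. The vessel collagen Col4a1 was higher with MC903 and lower with paeonol (0.78 ± 0.10, then -1.36 ± 0.11).

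A list of 18 genes around endothelial activation mixes cytokines with cytokine receptors, genes of the NF-κB pathway and a chemokine. Of these genes, 10 were higher and none lower with MC903 (median 0.53), beside 23.0% and 23.8% of all genes. With paeonol against MC903, 1 was higher and 5 lower (median -0.53), beside 15.3% and 14.3%. Against control 6 were higher and 1 lower (median 0.16), beside 16.3% and 14.5%. Il1b, an inducer of endothelial adhesion genes, went from 12.3 ± 3.92 CPM in control to 40.5 ± 6.12 in MC903 and 6.59 ± 1.08 with paeonol. Il1a, which epidermis also makes, measured 13.0 ± 0.951, 23.5 ± 3.07 and 31.1 ± 10.7 CPM and was called higher than control in both treated groups. Tnf was not called (log2 change 0.62 with MC903 and -0.22 with paeonol, edgeR adjusted p = 0.121 and 0.645). Beyond Il1a and Il1b, no cytokine of the list was called higher with MC903, so most of the calls were receptors and genes of the NF-κB pathway. Nfkbia, which NF-κB itself induces, changed by 1.17 ± 0.14 and -0.70 ± 0.13. Rela, which encodes an NF-κB subunit, was higher than control in both treated groups (0.20 ± 0.06 and 0.23 ± 0.06).

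Markers of other cell types that can carry member transcripts were also called in these comparisons. The shares of all genes called higher and lower were 23.0% and 23.8% with MC903, and 15.3% and 14.3% with paeonol against MC903. Of 12 monocyte and macrophage markers, which bear on Vcam1, Icam1 and Flt1, 10 were higher and 1 lower with MC903, and 10 lower and none higher with paeonol against MC903. Their summed level was 1036 to 1133 CPM in controls, 1764 to 1976 CPM in MC903 and 566.9 to 898.7 CPM with paeonol. Of 8 pan-leukocyte markers, which bear on Icam1 and Pecam1, 6 were higher with MC903 and 5 lower with paeonol, with sums of 388.4 to 466.4, 479.8 to 572.0 and 308.7 to 391.4 CPM. Of 8 platelet markers, which bear on Selp, Vwf and Pecam1, 2 were higher and 1 lower with MC903 and 2 lower with paeonol, with sums of 63.1 to 70.5, 93.8 to 111.8 and 45.8 to 67.2 CPM. The number higher with MC903 is near the share of all genes. Pf4 alone averaged 40.0 CPM in controls, 62.1 in MC903 and 26.1 with paeonol, while Gp1ba was the marker called lower with MC903. Of 10 keratinocyte markers, which bear on Icam1, 3 were higher and 3 lower with MC903 and 6 higher and 2 lower with paeonol, with sums of 18880 to 21853, 25831 to 31891 and 42242 to 45801 CPM. Of 8 neutrophil markers tested out of 10, 3 were higher with MC903, and 1 was higher and 2 lower with paeonol. No marker in these lists was at 0 in every library. The neutrophil markers Ly6g and Ngp failed the filter, with at most 12 and 19 counts in a library and 0 in most. The part of these cells in the changes of the members was not tested.

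Vessel wall and lymphatic markers were also lower with paeonol than in control. In that comparison 16.3% of all genes were called higher and 14.5% lower. The shares were 23.0% and 23.8% with MC903, and 15.3% and 14.3% in paeonol against MC903. Of 7 lymphatic markers, which bear on Pecam1, Cdh5, Kdr and Tek, 2 were higher and 4 lower with MC903, and none higher and 6 lower in paeonol against control. Their sums ran 323.1 to 388.5 CPM in controls, 284.1 to 308.3 in MC903 and 174.0 to 263.5 with paeonol. Of 11 pericyte and smooth muscle markers 2 were higher and 5 lower with MC903, and none higher and 9 lower in paeonol against control, with sums of 701.6 to 817.1, 569.3 to 667.3 and 478.8 to 527.1 CPM. Fibroblast, fat and muscle markers were lower with MC903 in 7 of 10, 10 of 10 and 19 of 20 genes. With paeonol against MC903, 4 fibroblast, 4 adipocyte and 6 muscle markers were higher and 2 of each lower. The members' transcripts from vessels within fat and muscle could not be measured apart from those of skin, and the part of these tissues in the members' changes was not tested.

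**Figure D5:**
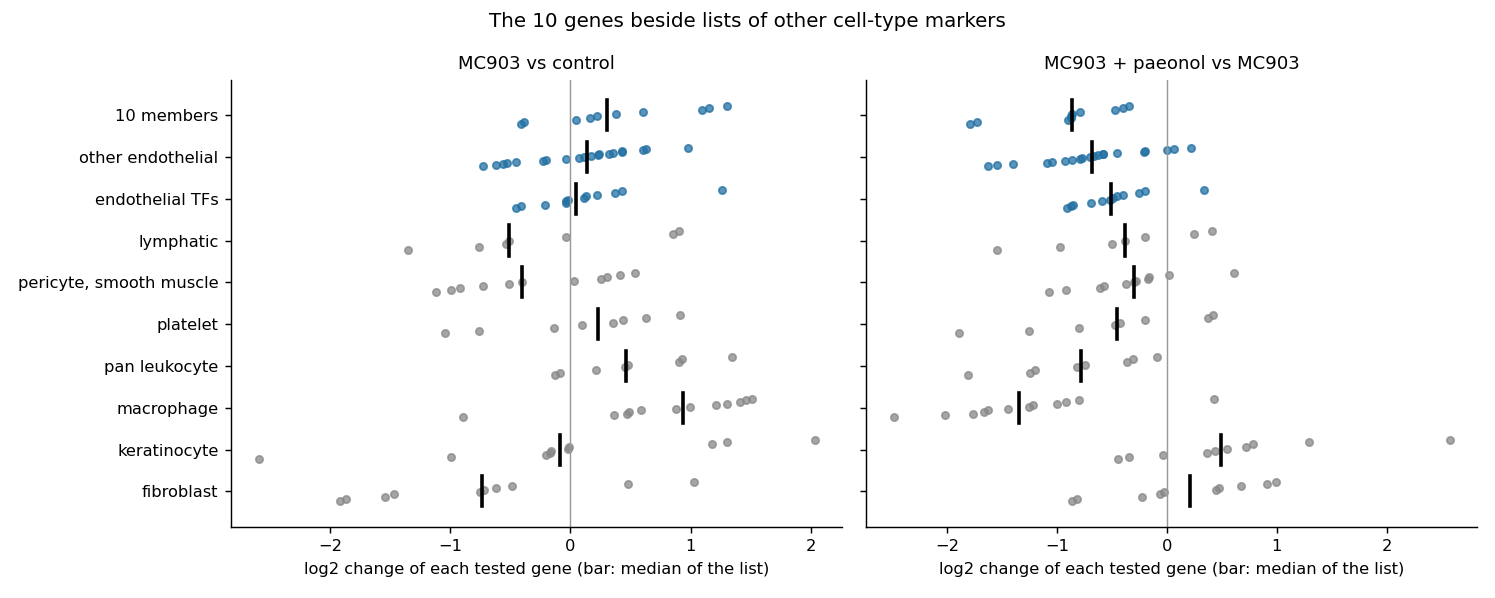
Log2 change of each tested gene (points) and list median (bar) for the 10 genes, 2 further endothelial lists and 7 lists of other cell-type markers, in MC903 against control and in MC903 with paeonol against MC903. With paeonol the medians of the 10 genes (-0.86) and of the other endothelial genes (-0.68) lie below 0, and that of macrophage markers is lower still (-1.34), while keratinocyte markers lie above 0 (0.50).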

How the data were processed

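Ear messenger RNA was measured in 9 libraries, grouped by the treatment label and joined to the columns of counts by library name. The values deposited by the authors are whole-number estimated counts per gene, not scaled between libraries. Tools named are HISAT2 2.0.4, cutadapt and StringTie 1.3.4d, with GRCm38 as the build, per the submitters' processing notes. What each tool did, which annotation was used and whether counting used strand is not stated there; library preparation marked strand, per the labels' protocols. Low counts pile up at multiples of 4, with 4 itself 1.91 to 2.23 times as common as the values around it. No value column was left unused.

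Of 55401 features, 55141 matched a GENCODE M21 symbol and filterByExpr of edgeR (at least 10 counts, total of at least 15) left 21925; 0.04% of counts lay outside the tested genes. All 9 libraries entered 1 fit in edgeR 4.0.16 under R 4.3.3 (DESeq2 1.42.0 as an alternative) with TMM scaling, a robust quasi-likelihood F test, two-sided, and Benjamini-Hochberg adjustment over all genes, called under 0.05. SE is the log2 change over the square root of F. A further fit replaced library sizes by the geometric mean of counts plus 1 over 20 endothelial genes, whose own error is not carried into its p-values. No replicates were within sampling noise of each other: on counts divided by 4, chi-square over its degrees of freedom was 7.03 to 15.8. Both fits were run on simulated data with changes in randomly drawn genes and no planned shift of the endothelial genes. A limit on calls of unchanged genes was set there for the TMM fit only.

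Members and lists were chosen with earlier results of these data known. Of 216 list genes 214 matched; Cd99 and Figf did not. Named genes are the 10 members, the 3 smallest p per gene list and comparison, the 2 smallest per marker list in MC903 against control, and the 3 genes most like each member by Pearson's r of log2 CPM (prior count 2); not all of these are printed. Itga4, Selplg and Tnf, outside that rule, were added after their values were seen, as partners or inducers of members. Same-numbered libraries did not deviate together (r from -0.0113 to 0.04), so replicate numbers were not taken as pairs. A gene of the trafficking list is counted there but not reported by name here. Alternatives are in the closing section.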

Additional observations from a re-analysis of the deposited data

How the results depend on the processing

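Each comparison was recomputed with DESeq2, its size factors, library totals, no filter, a mean CPM of at least 1, 2 groups per fit, a replicate block, counts divided by 4 and each library left out. The calls of Sele, Selp, Vcam1 and Kdr in MC903 against control, and of Vcam1, Selp, Pecam1, Cdh5, Vwf and Flt1 in paeonol against MC903, held in all of them. Library totals gave 3 members higher in MC903 against control, and 2155 genes higher and 5354 lower in paeonol against control in place of 3578 and 3187; on that scale Cdh5 and Vwf turned to -0.14 and -0.03 with MC903, and Icam1 to -0.03 in paeonol against control. With library totals or 2 groups in the fit, the Kdr call in paeonol against MC903 ended (adjusted p = 0.0854 and 0.067, edgeR). In MC903 against control with 2 groups, Icam1 was not called and Pecam1 was (0.0565 and 0.046, edgeR). In paeonol against control, Vcam1 was not called without a filter (0.0594) nor Flt1 with 2 groups (0.0655, edgeR), and Selp was called by DESeq2, library totals and counts divided by 4 (adjusted p = 0.0256, 0.0231 and 0.0481).

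The replicate block, with numbers that did not pair the samples, ended the Sele call in paeonol against MC903 (edgeR adjusted p = 0.0509) and the Flt1 call against control (0.0585), and left 0 members higher relative to the reference in paeonol against MC903. Summed reference counts gave 1 member lower in MC903 against control and 0 higher in paeonol against MC903, relative to the reference.

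With 1 of the 6 libraries compared left out, members called higher in MC903 against control were 3 to 5 and lower 1 to 2; in paeonol against MC903, 6 to 9 were lower, and against control 5 to 8. Relative to the reference these counts were 3 to 4 higher and 0 to 1 lower with MC903, and 0 to 2 higher and 2 lower in paeonol against MC903. In paeonol against control on that scale 2 members were higher and 0 lower each time. Uncalled values near 0 changed sign with 1 library out: Cdh5 in MC903 against control (-0.08 to 0.15, with -0.00 without control library 1, and -0.07 to 0.03 relative to the reference), Icam1 in paeonol against control (-0.01 to 0.36), and relative to the reference Sele against MC903 (-0.41 to 0.13) and Vcam1 (-0.17 to 0.09), Selp (-0.07 to 0.14) and Pecam1 (-0.13 to 0.03) against control. Leaving out 1 library of the remaining group gave 8 to 10 members lower in paeonol against MC903, with 10 without control library 2, and 5 to 7 against control. It gave 2 lower relative to the reference with MC903 and 0 higher in paeonol against MC903. The cause of these changes was not tested.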
